A study of Mus musculus with 14 samples.

Results

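MC-38 cells, a line derived from a mouse colon carcinoma, were compared between lung tumours and culture. All 8 lung tumour libraries of the series and its 3 untreated control cultures entered the comparison, 11 of 14 libraries in all. The members were set by their labels alone, and every gene of the count files was considered.

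The tumour cells were labelled as MC-38 cancer cells that express GFP, and they were sorted by flow cytometry on day 30. They came from WT mice (WT control), from WT mice with laparotomy (WT laparotomy), from PAD4 KO mice (KO control) and from PAD4 KO mice with laparotomy (KO laparotomy), with 2 libraries in each group. Laparotomy, a surgical opening of the abdomen, was done on days 0 and 10. PAD4, encoded by Padi4, is the enzyme that citrullinates histones when neutrophils release extracellular traps. The knockout is in the host and not in the tumour cells. The 3 cultures were MC-38 cells with no treatment, and their labels mention neither GFP nor sorting. One cell line is the only model here. Growth in the lung, GFP, sorting and handling of the tissue differ together between tumours and culture. Any preparation in separate runs and any difference between stocks of the line add to these, and none can be told apart. The labels do not say that libraries came from separate animals or separate cultures, so p-values describe the variation among these libraries only.

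Cells in culture grow on plastic in rich medium with serum, oxygen and a neutral pH. In a lung tumour, cancer cells touch a fibrous matrix, blood vessels and immune cells, and they share nutrients with them. Genes of matrix synthesis, protein folding, and lysosomal and antioxidant control can follow such surroundings. So can genes of the immediate early response to growth factors and stress. Sorting and handling of the tissue cannot be told apart from such surroundings here, and no cause was tested.

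The tumour libraries held 10844282 to 31255721 gene counts, against 8788201 to 12342510 in the cultures. Between 12.1% and 15.3% of reads were outside genes in the tumours, against 17.6% to 18.2% in the cultures. Levels are given as counts per 1000000 gene counts (CPM) scaled with trimmed mean of M-values (TMM) factors, so they can be compared between libraries but not between genes. Replicates varied more in vivo, with a common biological coefficient of variation of 0.273 over the 8 tumour libraries against 0.0608 over the 3 cultures. The tests used a spread for each gene, estimated from all 11 libraries together, for which the common value was 0.217.

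Transcripts of host cells were present in every tumour library, but not every marker list stood above culture in each of them. Summed over 10 pan-leukocyte markers, the tumours held 100.1 to 1057 CPM, against 5.567 to 5.939 in culture. The 18 monocyte and macrophage markers summed to 123.6 to 1626 CPM in the tumours, against 94.24 to 114.3 in culture. Of the culture sum, Cd68 alone made 92.69 CPM on average, and 9 members, among them Adgre1, Csf1r, Itgam and C1qa, were at 0 in all cultures. Endothelial markers (12) summed to 169.3 to 840.7 CPM in the tumours, against 8.907 to 11.63 in culture, with Emcn and Cldn5 at 0 in culture. Lung epithelial markers (15) summed to 21.65 to 840.8 CPM in the tumours, against 39.57 to 41.98 in culture, where Rtkn2 supplied 22.65 CPM and Sftpa1, Sftpd, Scgb3a2, Foxj1, Nkx2-1 and Cldn18 were at 0. Neutrophil markers (11) summed to 5.285 to 603.2 CPM in the tumours, against 0.3976 to 1.072 in culture, with S100a9, Retnlg, Csf3r, Mpo and Ngp at 0 in culture. Of the 8 tested neutrophil markers, 0 were higher in all 4 groups (5 with DESeq2), and 0 were called in WT laparotomy tumours. Of the 15 lung epithelial markers, 4 were higher in all 4 groups (9 with DESeq2) and 1 was lower. Both WT laparotomy sums of that list (21.65 and 32) lay below every culture. Replicate 2 of the WT control tumours was the highest tumour for all 10 host lists, and for T and NK cell markers the only tumour above culture. Fibroblast, mural and mesothelial markers (15) summed to 395.3 to 876.3 CPM in the tumours, against 496.3 to 554 in culture. Msln, a mesothelial surface protein, supplied 302.3 CPM of that culture sum, and Tcf21, Inmt, Rgs5, Upk3b and Wt1 were at 0 in culture. The 9 B cell markers summed to 16.25 to 153 CPM in the tumours, against 2.571 to 3.299 in culture, where Ms4a1 and Blk were at 0. The 12 dendritic cell and MHC class II genes summed to 45.05 to 684.6 CPM in the tumours, against 15.03 to 17.44 in culture, where Flt3, Xcr1, Siglech and Cd209a were at 0. The 15 T and NK cell markers in the files summed to 17.11 to 179.8 CPM in the tumours, against 71.67 to 81.83 in culture, of which the chemokine Ccl5 made 75.48 and where Cd8a, Cd2, Nkg7, Klrb1c, Ncr1, Gzma, Gzmb and Prf1 were at 0. The 10 erythroid and platelet markers summed to 3.984 to 18.41 CPM in the tumours, against 21.35 to 22.43 in culture, of which Itga2b made 20.26, with 4 hemoglobin genes and Gp9 at 0. Ddx3y, Eif2s3y, Kdm5d and Uty, genes of the Y chromosome, had counts in all 8 tumour libraries and none in the cultures, with Ddx3y at 1.86 to 28.6 CPM in the tumours. Xist, the X-inactivation transcript of female cells, had 2.61 to 75.02 CPM in the tumours, against 0.398 to 0.6598 in culture, so that all 5 sex-linked genes listed were higher in all 4 groups. That count was 2 with at least 5 CPM in 2 libraries, and 2 with each tumour group fitted alone with culture. In such bulk libraries more host cells and more RNA per host cell cannot be told apart. The part of host RNA in the results below was not tested, except where a measured value is given.

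**Figure D1:**
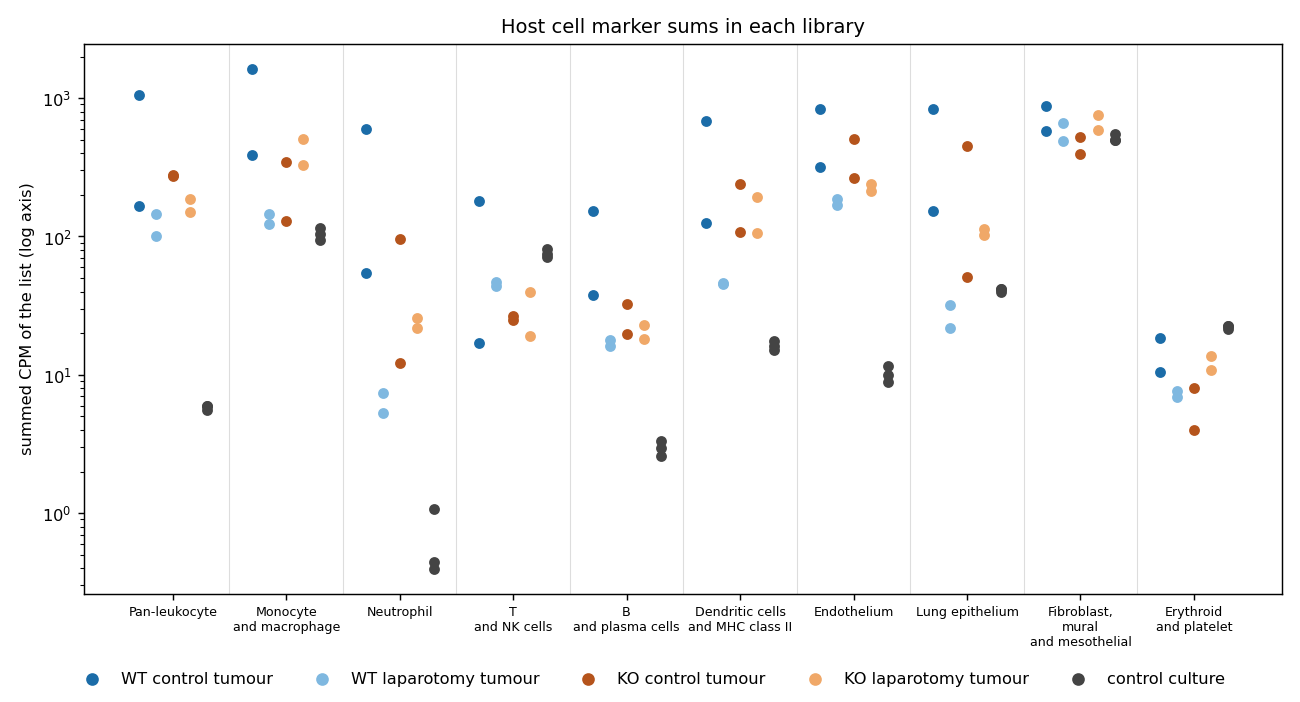
Summed CPM (log axis) of 10 lists of host cell markers, a dot for each of the 8 tumour libraries and the 3 control cultures. Replicate 2 of the WT control tumours was highest in the leukocyte, neutrophil and lung epithelial lists, with sums of 1057, 603.2 and 840.8 CPM.

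Of 24411 genes in the files, 14318 passed the filter on low counts and were tested. edgeR's quasi-likelihood test with Benjamini-Hochberg adjustment, at an adjusted p of 0.05, called 5163 genes higher (36.1%) and 4150 lower (29%) in WT control tumours than in culture. In WT laparotomy tumours 4483 genes were higher (31.3%) and 3831 lower (26.8%), in KO control tumours 5040 (35.2%) and 4094 (28.6%), and in KO laparotomy tumours 4869 (34%) and 4154 (29%). All 4 comparisons share the same 3 cultures. On the mean of the 4 comparisons, 5447 genes were higher (38%) and 4815 lower (33.6%), and the median over all genes was 0.07 on the log2 scale.

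A gene is counted here as higher or lower in all 4 groups when it was called in the same direction in each comparison and its 8 tumour values did not overlap its 3 culture values. By that count 3524 genes were higher (24.6%) and 2897 lower (20.2%) in all 4 groups. At least 2-fold differences in each group were found in 1921 (13.4%) and 1202 (8.4%). Without replicate 2 of the WT control tumours the counts were 3433 higher and 2753 lower. Scaling on genes expressed in culture in place of all genes gave 4018 higher and 2413 lower, and it moved the median of all genes to 0.196. Of the genes higher in all 4 groups, 2157 varied by less than 2-fold over the 8 tumour libraries and 687 by 5-fold or more. Of the lower ones, 2121 varied by less than 2-fold and 262 by 5-fold or more. Over all 14318 tested genes these counts were 8556 and 3076. The median ratio of the highest to the lowest tumour library was 1.63 for the higher and 1.58 for the lower genes, against 1.71 for all.

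Gene lists are described below by how many tested members were higher or lower in all 4 groups, against 24.6% and 20.2% of all tested genes, and by the median of the mean log2 fold change, against 0.07 for all genes. A value given beside a gene without CPM is its log2 fold change against culture on the mean of the 4 groups, with the SE after ±. In each list the members named by rule are those among the 3 with the smallest p, as far as they are reported here. The other members named, the genes plotted and the promoters shown are examples chosen after their values were seen.

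**Figure D2:**
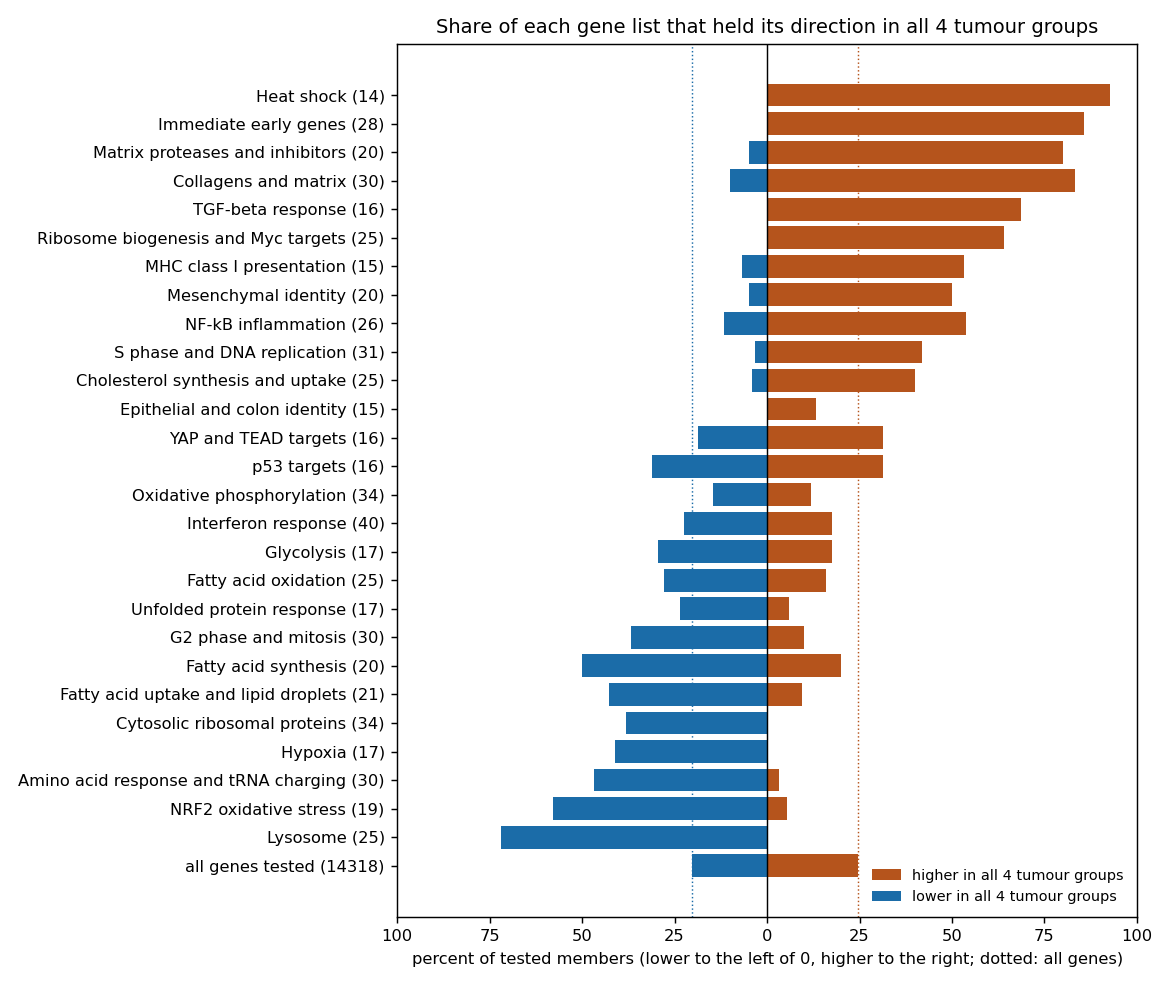
Percent of the tested members of 27 gene lists that were higher or lower than culture in all 4 tumour groups, with the share of all tested genes in the bottom row and as dotted lines (24.6% higher, 20.2% lower). Immediate early, heat shock and matrix genes stood far above the line for higher genes, and lysosomal and NRF2 genes above the line for lower ones.

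**Figure D3:**
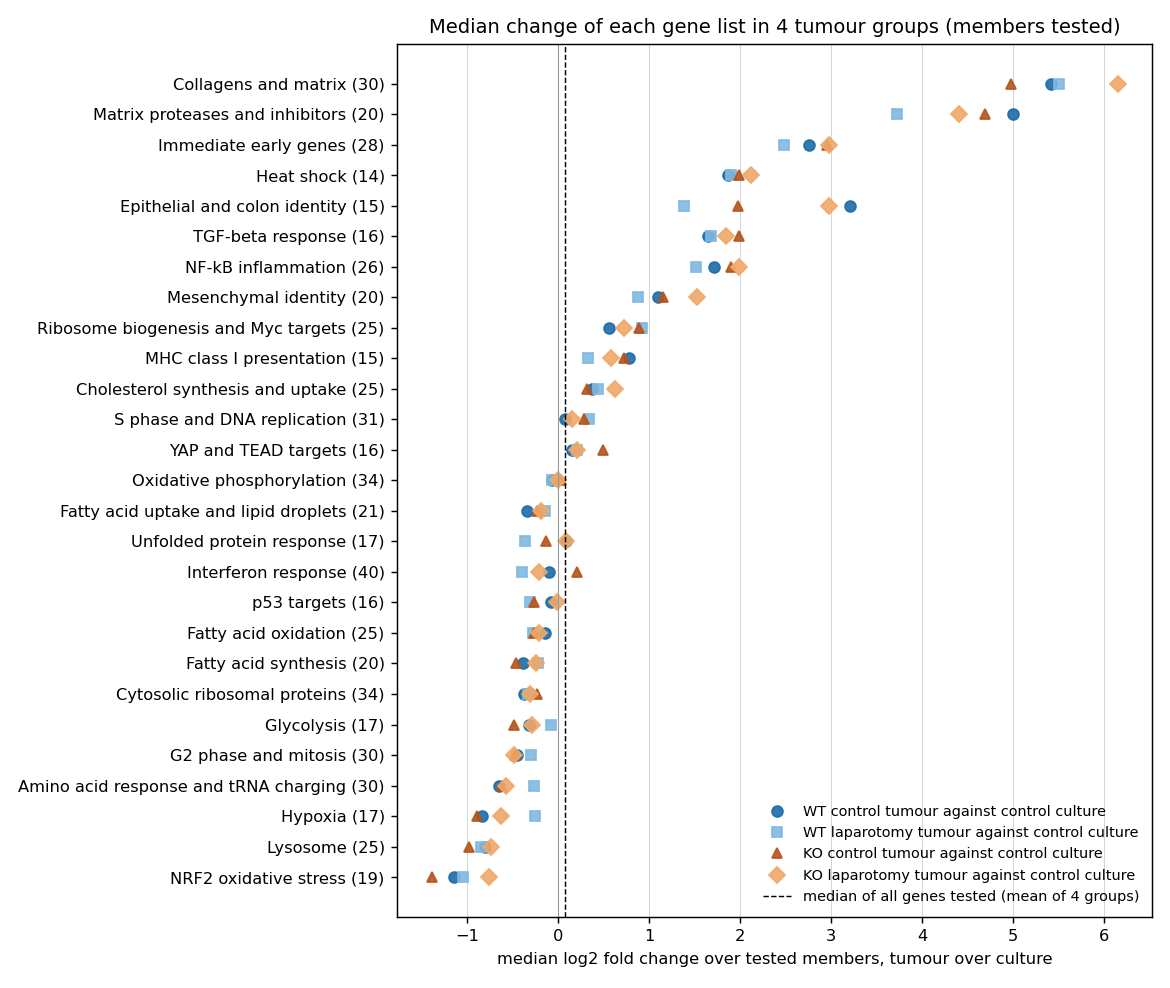
Median log2 fold change of each of 27 lists in the 4 tumour groups against control culture, with a dashed line at the median of all genes. The matrix list had medians of 4.97 to 6.15 and the NRF2 list of -1.39 to -0.76.

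Extracellular matrix genes were among those with the highest differences. Of 30 collagens and matrix proteins, 25 were higher and 3 lower in all 4 groups, and the median was 5.61. Col6a3 (chromosome 1, 90765923 to 90843971, GRCm38), a chain of the beaded collagen VI, stood at 6505 and 5850 CPM in WT control tumours, 3910 and 4005 in WT laparotomy tumours, 7585 and 5827 in KO control tumours and 6290 and 6022 in KO laparotomy tumours, against 24.9, 28.7 and 23.9 in culture. All 8 tumours lay far above all cultures, and the log2 fold change was 7.77 (adjusted p = 3.44e-10, SE 0.14) on the mean of the 4 groups. Col1a1, the main chain of fibrillar collagen I, stood at 1671 and 1544 CPM in WT control tumours, 779 and 732 in WT laparotomy tumours, 2598 and 1428 in KO control tumours and 1766 and 943 in KO laparotomy tumours, against 1.23, 1.897 and 1.51 in culture. The WT laparotomy pair was lowest, yet far above culture, and the log2 fold change was 9.74 (adjusted p = 7.48e-08, SE 0.40). Fbn1 (chromosome 2, 125300594 to 125507993), which builds microfibrils, had 1447 to 1994 CPM in the tumours, against 34.2 to 39.6 in culture, a log2 fold change of 5.54 (adjusted p = 3.46e-10, SE 0.11). Fn1, fibronectin, was already abundant in culture and stood at 11110 and 10090 CPM in WT control tumours, 8386 and 8182 in WT laparotomy tumours, 10140 and 9544 in KO control tumours and 13740 and 9743 in KO laparotomy tumours, against 1366, 1405 and 1335 in culture. Its tumour values did not overlap culture, and the log2 fold change was 2.87 (adjusted p = 8.58e-09, SE 0.11).

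Matrix genes that were almost silent in culture were expressed in every tumour. Tnc, tenascin C, had 767 to 3071 CPM in the tumours, against 0.239 to 0.671 in culture, with a log2 fold change of 11.71 ± 0.57. Lama4, a laminin chain of vessel walls, stood at 309 and 234 CPM in WT control tumours, 77.9 and 54.8 in WT laparotomy tumours, 158 and 162 in KO control tumours and 295 and 312 in KO laparotomy tumours, against 0.112, 0 and 0 in culture. With 1 count in culture, the ratio of tumours to culture was 5940-fold (1070- to 235000-fold), where the interval is the exact 95% one for counting error only. Prg4, the lubricant proteoglycan, ranged over 5.39 to 496 CPM in the tumours, with its lowest value in KO control replicate 1, against 0 to 0.0795 in culture. Postn, the matricellular protein periostin, had 38.97 to 191 CPM in the tumours, against 0 to 0.165 in culture. The collagen VI chain Col6a5 had 19.7 to 78.9 CPM in the tumours, against 0 to 0.0825 in culture. Also by the rule of the largest differences in all groups, the small proteoglycan Dcn had 241 to 1533 CPM in the tumours, against 12.3 to 13.5 in culture (log2 fold change 5.30 ± 0.41), and Col3a1 and Col5a3 differed by 6.47 and 4.45.

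The 3 lower genes of the matrix list were Col4a1, Col4a2 and Lamc1. Col4a1, a collagen of basement membranes, the sheets under epithelia, stood at 274 and 190.4 CPM in WT control tumours, 335 and 244 in WT laparotomy tumours, 101 and 136 in KO control tumours and 149.8 and 261 in KO laparotomy tumours, against 496, 567 and 526 in culture, a log2 fold change of -1.40 (adjusted p = 6.77e-05, SE 0.18). KO control replicate 1 was lowest, and no tumour reached culture. Its partner Col4a2 (-1.54) and the laminin chain Lamc1 (-0.996) were lower too, and Col4a6, not in the list, was nearly absent at 0.0436 to 0.807 CPM in the tumours, against 52.4 to 56.5 in culture. Of the 14 tested fibroblast, mural and mesothelial markers, 7 were higher in all 4 groups and 1 was lower, with a median of 3.92. On the mean of the groups 11 were higher and 1 lower. Their summed level, given above, overlapped between tumours and culture, with Msln making most of the culture sum. The part of such cells in the matrix results was not tested.

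Matrix proteases and their inhibitors followed, with 16 of 20 members higher, 1 lower and a median of 4.45. With the 4 members that had no culture count set at their lower bounds, the group medians were 4.86 in WT control, 3.58 in WT laparotomy, 3.54 in KO control and 4.40 in KO laparotomy tumours. Mmp2, a gelatinase, stood at 616 and 414 CPM in WT control tumours, 473 and 329.9 in WT laparotomy tumours, 176 and 284 in KO control tumours and 747 and 706 in KO laparotomy tumours, against 1.23, 0.577 and 0.557 in culture. KO control tumours were lowest and no library came near culture, with a log2 fold change of 9.16 (adjusted p = 3.33e-08, SE 0.36). Mmp19, a protease of basement membrane proteins, had 25.2 to 76.4 CPM in the tumours, against 0.224 to 0.907 in culture (6.15 ± 0.26), and Adamts4, which cuts the proteoglycan aggrecan, 67.2 to 189 CPM in the tumours, against 25.6 to 29.5 in culture (1.91 ± 0.095). The gelatinase Mmp9 had 112 to 407 CPM in the tumours, against 8.66 to 9.502 in culture (4.44 ± 0.36). Ctsl, a cysteine protease of lysosomes, was the lower member (-1.29), with 2 lower without WT control replicate 2 or KO laparotomy replicate 1.

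Mmp12, macrophage elastase, had no count in culture and stood at 74.9 and 35.95 CPM in WT control tumours, 111 and 74.7 in WT laparotomy tumours, 17.6 and 12.8 in KO control tumours and 30.1 and 79.9 in KO laparotomy tumours, against 0, 0 and 0 in culture. It was at least 583-fold higher, with 3 counts over the 3 cultures as the floor. Mmp10, stromelysin 2, had 13.4 to 182 CPM in the tumours, against 0 in every culture, which makes it at least 469-fold higher. The spread between tumours was wide for both. The promoter of Mmp12 is shown because 5 of 13 windows of this list (38.5%) hold the AP-1 letters TGANTCA on either strand, against 7.81% of all 32851 windows and 6.65% of the 3265 windows of genes higher in all 4 groups. AP-1 is the dimer of Fos and Jun proteins. The window runs from 250 bases before to 50 after a RefSeq start at chr9:7347124-7347423 on the plus strand (GRCm38.p6), and capitals mark the match. This is window 2 of the gene, and the window listed before it holds no such match.
Mmp12: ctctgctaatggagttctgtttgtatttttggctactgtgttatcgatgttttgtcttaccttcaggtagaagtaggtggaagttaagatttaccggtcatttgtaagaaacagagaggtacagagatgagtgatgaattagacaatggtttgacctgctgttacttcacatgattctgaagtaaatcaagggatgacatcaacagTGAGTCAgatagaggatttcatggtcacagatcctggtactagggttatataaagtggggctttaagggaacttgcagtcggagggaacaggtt

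TGF-beta response genes were higher in 11 of 16 cases and lower in none, with a median of 1.79. Smad7, which inhibits the pathway, stood at 29.9 and 39.5 CPM in WT control tumours, 25.9 and 23.6 in WT laparotomy tumours, 49.2 and 51.4 in KO control tumours and 41.1 and 33.6 in KO laparotomy tumours, against 5.25, 4.45 and 3.98 in culture. All tumours exceeded culture, with a log2 fold change of 2.98 (adjusted p = 4.7e-08, SE 0.15). Skil, a repressor of Smads, had 94.1 to 165 CPM in the tumours, against 51.4 to 61.6 in culture (1.21 ± 0.088). Of the ligands, Tgfb2 was higher (2.41), whereas Tgfb1 differed by 0.12 and was not called in all groups. The receptor Tgfbr2 was higher by 1.78.

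Mesenchymal identity genes were higher in 10 of 20 cases and lower in 1, with a median of 1.06. Pdgfrb, a platelet-derived growth factor receptor, had 241 to 694 CPM in the tumours, against 8.74 to 12.1 in culture (5.23 ± 0.24). The hyaluronan receptor Cd44 (1.44) and the fibronectin receptor chain Itga5 (1.97) were higher by less. Prrx1, a mesenchymal transcription factor, had 153 to 486 CPM in the tumours, against 6.82 to 9.14 in culture. Snai1, a repressor of epithelial genes, had 54.7 to 81.4 CPM in the tumours, against 9.73 to 11.8 in culture (2.67 ± 0.16). Vim, the intermediate filament vimentin, did not pass in every group, with 2956 to 4177 CPM in the tumours, against 2130 to 2649 in culture. Secreted factors picked by the rule of large differences were Hgf, hepatocyte growth factor, at 142 to 432 CPM in the tumours, against 5.44 to 8.83 in culture, Angptl2 at 144 to 253 CPM in the tumours, against 8.03 to 10.6 in culture and the matricellular protein Wisp1 at 231 to 419 CPM in the tumours, against 7.18 to 9.17 in culture.

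Epithelial and colon identity genes were scarce on both sides. Only 15 of 19 passed the filter and 2 of those were higher in all groups. The count was 0 with at least 5 CPM in 2 libraries, and 0 with each tumour group fitted alone with culture. Epcam had 0 to 1.89 CPM in the tumours, against 0.0795 to 0.224 in culture, and Cdh1, E-cadherin, had 0.436 to 8.17 CPM in the tumours, against 0 in every culture. Krt8 had 0.228 to 10.2 CPM in the tumours, against 0.112 to 0.247 in culture and Krt18 0.342 to 3.58 CPM in the tumours, against 0 to 0.112 in culture. These markers did not show the colon origin of the line in tumours or in culture. Krt14, a basal keratin outside that list, had 5.24 to 12.2 CPM in the tumours, against 0 in every culture.

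YAP and TEAD target genes showed no common direction, with 5 of 16 higher, 3 lower and a median of 0.18. The higher count was 3 without WT laparotomy replicate 2 or culture replicate 3. Cyr61, a secreted matricellular target, was higher by 3.40 ± 0.097, while Wwc1 (-1.33), an upstream regulator, and the receptor kinase Axl (-0.89) were lower.

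Immediate early genes, which cells transcribe within minutes of a stimulus, were higher in all 4 groups in 24 of 28 cases and lower in none, with a median of 2.72. Egr1, a zinc finger transcription factor, stood at 964 and 1763 CPM in WT control tumours, 1140 and 1275 in WT laparotomy tumours, 1801 and 1646 in KO control tumours and 1722 and 2074 in KO laparotomy tumours, against 1.79, 2.14 and 2.39 in culture. Fos, a subunit of AP-1, stood at 668 and 1226 CPM in WT control tumours, 991 and 877 in WT laparotomy tumours, 781 and 810.5 in KO control tumours and 1281 and 1222 in KO laparotomy tumours, against 2.91, 2.89 and 2.86 in culture. Fosb, its relative, stood at 380.1 and 549 CPM in WT control tumours, 485 and 459.8 in WT laparotomy tumours, 541 and 507 in KO control tumours and 760.1 and 611 in KO laparotomy tumours, against 0.559, 1.402 and 1.03 in culture. Each of these was low in every culture and high in every tumour, with log2 fold changes of 9.48 (adjusted p = 2.87e-09, SE 0.28), 8.39 (adjusted p = 3.28e-09, SE 0.25) and 8.99 (adjusted p = 1.48e-09, SE 0.24). Jun, the partner of Fos, had 1297 to 2524 CPM in the tumours, against 48.9 to 64.1 in culture (4.90 ± 0.17). Dusp1, a phosphatase that shuts off MAP kinases, had 249.6 to 546 CPM in the tumours, against 3.69 to 4.701 in culture (6.32 ± 0.32). The members not called in all groups were Ier3, Nr4a1, Nr4a2 and Spry2. The pan-leukocyte marker sum was also higher in every tumour than in culture, as given above, and the part of leukocytes in this rise was not tested. Nor was the part of sorting and handling of the tissue, which cannot be told apart from growth site.

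Zfp36, which destabilises cytokine messages, stood at 179 and 439 CPM in WT control tumours, 317 and 359 in WT laparotomy tumours, 442 and 411 in KO control tumours and 480.1 and 535 in KO laparotomy tumours, against 22.5, 23.7 and 23.9 in culture, a log2 fold change of 4.05 (adjusted p = 1.87e-06, SE 0.28). Its promoter is shown for the CArG box, the site of serum response factor, which 6 of 29 windows of the list (20.7%) and 1.63% of all windows hold. It lies at chr7:28379179-28379478 on the minus strand (GRCm38.p6, RefSeq), and capitals mark the box, which starts at base 193.
Zfp36: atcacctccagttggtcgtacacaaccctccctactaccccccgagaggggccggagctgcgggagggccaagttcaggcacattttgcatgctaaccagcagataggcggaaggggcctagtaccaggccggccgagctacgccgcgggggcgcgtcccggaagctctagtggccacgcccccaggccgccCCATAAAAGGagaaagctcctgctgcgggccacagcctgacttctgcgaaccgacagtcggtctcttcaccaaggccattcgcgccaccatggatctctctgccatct

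**Figure D4:**
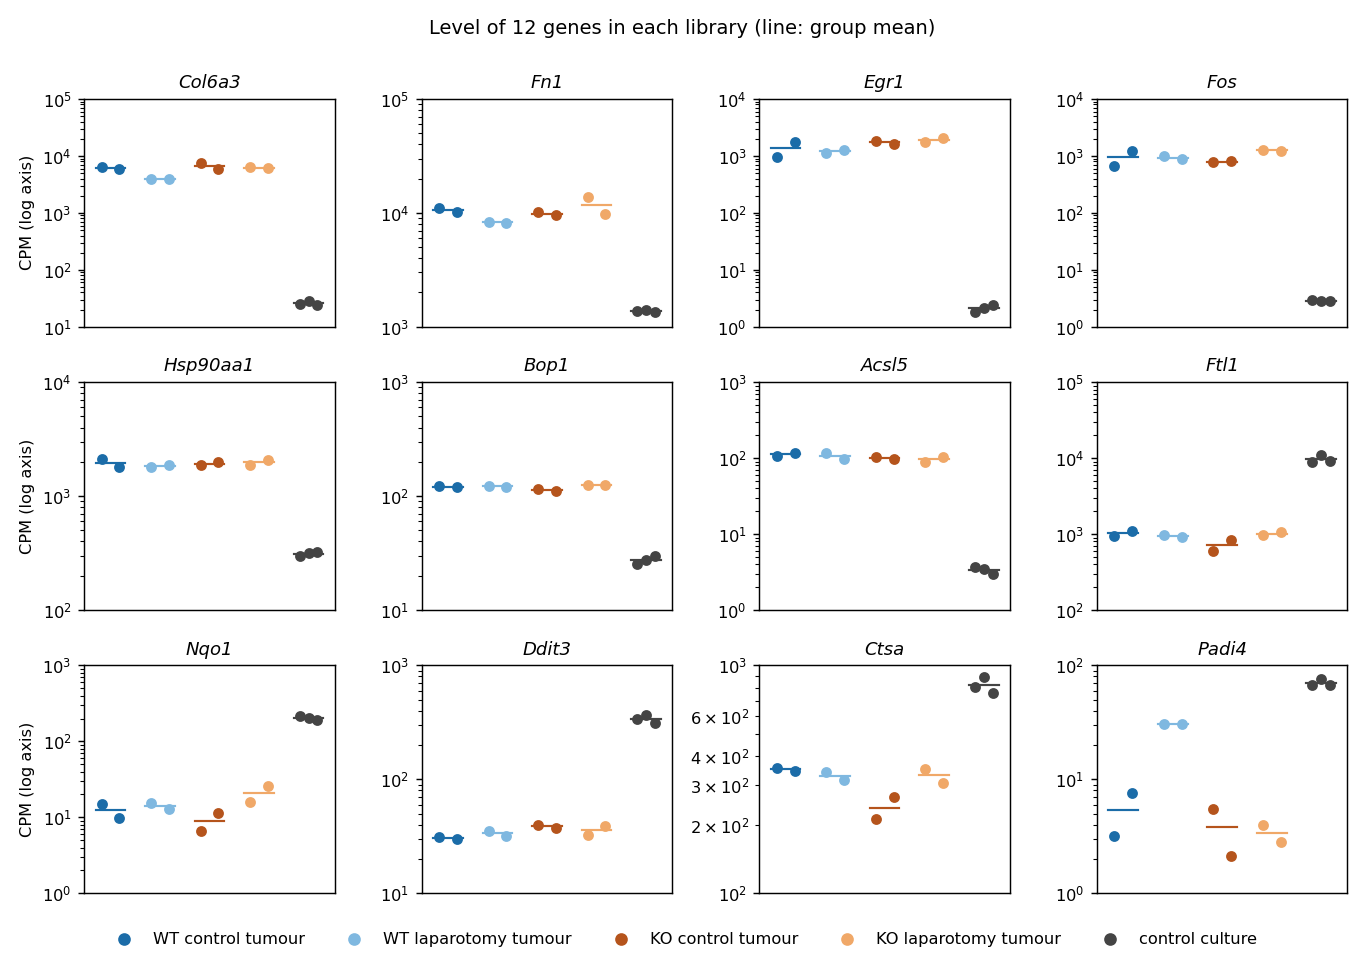
CPM (log axis) of 12 genes in each of the 8 tumour libraries and the 3 control cultures, dots being libraries and lines group means. Col6a3, Fn1, Egr1, Fos, Hsp90aa1, Bop1 and Acsl5 lay above culture in every tumour library, and Ftl1, Nqo1, Ddit3, Ctsa and Padi4 lay below it.

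Heat shock genes were higher in 13 of 14 cases, with a median of 1.99. Here too growth site cannot be told apart from sorting and handling. Hsp90aa1 (chromosome 12, 110690605 to 110702728), the inducible cytosolic chaperone HSP90 alpha, stood at 2108 and 1818 CPM in WT control tumours, 1818 and 1873 in WT laparotomy tumours, 1860 and 1987 in KO control tumours and 1890 and 2064 in KO laparotomy tumours, against 297, 317 and 320.3 in culture. The tumours were nearly alike, and the log2 fold change was 2.63 (adjusted p = 2.06e-09, SE 0.077). Its constitutive relative Hsp90ab1 was the member not called in all 4 groups, although it was called higher in KO control tumours. Hsp90ab1 had 4181 to 6230 CPM in the tumours, against 4437 to 5193 in culture. The co-chaperone Dnaja1 was higher by 3.29 ± 0.10. Hspa8, the constitutive HSP70, had 3327 to 4059 CPM in the tumours, against 1045 to 1244 in culture (1.66 ± 0.082). Hspa1b, the inducible HSP70, had 38.6 to 77.2 CPM in the tumours, against 0.875 to 1.12 in culture, but its near-identical copy Hspa1a can share its reads and both values are uncertain.

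Hsph1, a nucleotide exchange factor for HSP70, stood at 1217 and 839 CPM in WT control tumours, 751 and 1015 in WT laparotomy tumours, 1307 and 1231 in KO control tumours and 950.0 and 1202 in KO laparotomy tumours, against 188, 199 and 185 in culture, with a log2 fold change of 2.47 (adjusted p = 1.66e-07, SE 0.15). Its promoter is shown because 4 of 15 windows of the list (26.7%) hold a heat shock element, searched on both strands as GAA, NN, TTC, NN and GAA in a row, against 0.603% of all windows. The window is chr5:149636287-149636586 on the minus strand (GRCm38.p6, RefSeq), and capitals mark the match from base 287 on, which lies on the opposite strand and after the start.
Hsph1: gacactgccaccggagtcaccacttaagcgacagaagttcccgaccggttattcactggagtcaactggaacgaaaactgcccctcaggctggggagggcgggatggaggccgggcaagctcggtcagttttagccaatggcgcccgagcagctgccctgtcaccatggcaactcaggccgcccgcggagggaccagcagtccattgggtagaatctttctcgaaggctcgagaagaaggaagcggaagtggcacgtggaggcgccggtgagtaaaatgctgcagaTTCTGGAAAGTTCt

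NF-kB inflammation genes were higher in 14 of 26 cases and lower in 3, with a median of 1.68. Vcam1, an adhesion molecule for leukocytes, differed by 2.08 ± 0.11, and Nfkbiz, a nuclear cofactor, by 2.81 ± 0.18. Tnf stood at 33.95 and 75.3 CPM in WT control tumours, 26.1 and 36.05 in WT laparotomy tumours, 125 and 88.1 in KO control tumours and 71.7 and 57.6 in KO laparotomy tumours, against 0.782, 0.3299 and 0.398 in culture. KO control replicate 1 was highest and all tumours exceeded culture, with a log2 fold change of 6.92 (adjusted p = 7.33e-07, SE 0.45). The chemokine Cxcl2 had 29.7 to 189 CPM in the tumours, against 2.01 to 3.05 in culture, and Il6 2.61 to 20.2 CPM in the tumours, against 0.0825 to 0.671 in culture. The 3 lower members were the subunit Rel (-0.92), the iron carrier Lcn2 (-3.69) and the chemokine Ccl20. The count of lower members was 1 without WT control replicate 1, WT laparotomy replicate 2, KO laparotomy replicate 1 or 2, or culture replicate 2 or 3, and 0 without culture replicate 1. Leukocytes also make these cytokines, and the pan-leukocyte marker sum stood higher in every tumour than in culture, as given above.

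Nfkbia, the inhibitor that NF-kB itself induces, stood at 215 and 384 CPM in WT control tumours, 414 and 517 in WT laparotomy tumours, 626 and 526 in KO control tumours and 483 and 718 in KO laparotomy tumours, against 137, 160.4 and 149 in culture. WT control replicate 1 came nearest to culture without overlap, and the log2 fold change was 1.65 (adjusted p = 4.56e-05, SE 0.20). Its promoter is shown for an NF-kB site, searched as GGGA followed by CTTTCC or ATTTCC and found on either strand in 5 of 22 windows of the list (22.7%) and in 0.244% of all. It lies at chr12:55492598-55492897 on the minus strand (GRCm38.p6, RefSeq), with the match, which lies on the opposite strand, in capitals.
Nfkbia: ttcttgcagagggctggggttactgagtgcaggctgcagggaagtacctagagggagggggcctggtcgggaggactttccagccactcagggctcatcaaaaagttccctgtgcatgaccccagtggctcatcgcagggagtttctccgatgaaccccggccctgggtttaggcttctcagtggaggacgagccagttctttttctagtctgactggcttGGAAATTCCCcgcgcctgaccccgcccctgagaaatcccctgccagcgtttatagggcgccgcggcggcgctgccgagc

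Target genes of NRF2, the transcription factor of the antioxidant response, were lower in 11 of 19 cases and higher in 1, with a median of -1.08. Nqo1 (chromosome 8, 107388225 to 107403206), a quinone reductase, stood at 15.1 and 9.73 CPM in WT control tumours, 15.6 and 12.8 in WT laparotomy tumours, 6.64 and 11.4 in KO control tumours and 16.1 and 25.9 in KO laparotomy tumours, against 213, 201 and 194 in culture. Every tumour was below every culture, and the log2 fold change was -3.92 (adjusted p = 4.62e-08, SE 0.17). Ftl1, the ferritin light chain, stood at 944 and 1091 CPM in WT control tumours, 977 and 914 in WT laparotomy tumours, 599.5 and 832 in KO control tumours and 969.8 and 1065 in KO laparotomy tumours, against 8917, 10870 and 9107 in culture, a log2 fold change of -3.40 (adjusted p = 1.84e-09, SE 0.097), although processed copies of this gene elsewhere in the genome make its reads uncertain. Tkt, transketolase, differed by -1.43 ± 0.066. The glutathione genes Gclc (-1.44) and Gstm1 (-2.21) were lower, and Gsr, glutathione reductase, was the higher one (0.82). The higher count was 0 without WT laparotomy replicate 2 and 3 without either WT control library, KO control replicate 1 or either KO laparotomy library. Nfe2l2, which encodes NRF2, differed by 0.071 and was not called in all groups.

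Gclm, the modifier subunit of glutathione synthesis, stood at 48.5 and 37.4 CPM in WT control tumours, 50.1 and 59.03 in WT laparotomy tumours, 36.01 and 49.8 in KO control tumours and 44.7 and 46.2 in KO laparotomy tumours, against 161, 170.2 and 156 in culture. The groups did not overlap, and the log2 fold change was -1.81 (adjusted p = 1.11e-07, SE 0.10). Its promoter is shown for the antioxidant response element TGACNNNGC, which 7 of 20 windows of the list (35%) and 12.4% of all windows hold on either strand. It lies at chr3:122245307-122245606 on the plus strand (GRCm38.p6, RefSeq), with the element, which lies on the opposite strand, in capitals.
Gclm: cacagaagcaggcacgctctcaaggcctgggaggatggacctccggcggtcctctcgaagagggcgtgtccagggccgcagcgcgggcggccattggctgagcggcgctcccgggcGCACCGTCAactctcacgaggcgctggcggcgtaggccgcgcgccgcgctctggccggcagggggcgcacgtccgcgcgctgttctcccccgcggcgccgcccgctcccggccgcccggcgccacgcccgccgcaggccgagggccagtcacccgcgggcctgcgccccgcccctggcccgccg

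Lysosomal genes were lower in 18 of 25 cases and higher in none, with a median of -0.82. Gaa, which degrades glycogen in lysosomes, had 215 to 364 CPM in the tumours, against 796 to 905 in culture, a log2 fold change of -1.54 (adjusted p = 3.55e-08, SE 0.073). Scarb2, a membrane protein of lysosomes, differed by -1.24 ± 0.064. Ctsa, a carboxypeptidase that protects other lysosomal enzymes, stood at 356 and 344 CPM in WT control tumours, 342 and 314 in WT laparotomy tumours, 212 and 264 in KO control tumours and 352 and 305 in KO laparotomy tumours, against 808, 891 and 756 in culture, a log2 fold change of -1.41 (adjusted p = 1.06e-07, SE 0.080). The sialidase Neu1 (-2.43) was lower too. Among the members not called in all groups were Ctsd, Ctsh, Gla, Lipa, Atp6v1h and Tfeb, the last of which encodes the regulator of the list.

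Mcoln1, the calcium channel of lysosomes, stood at 53.7 and 55.2 CPM in WT control tumours, 50.9 and 58.7 in WT laparotomy tumours, 41.3 and 43.7 in KO control tumours and 66.1 and 55.4 in KO laparotomy tumours, against 144, 166 and 141 in culture, a log2 fold change of -1.51 (adjusted p = 5.82e-08, SE 0.078). Its promoter is shown for the CLEAR box TCACGTGA, the site of TFEB, which contains the E-box CACGTG and reads the same on both strands. The box is in 5 of 22 windows of the list (22.7%) and 0.974% of all. The window is chr8:3500269-3500568 on the plus strand (GRCm38.p6, RefSeq), and capitals mark the box. In all 6 printed windows a match describes letters only, not binding.
Mcoln1: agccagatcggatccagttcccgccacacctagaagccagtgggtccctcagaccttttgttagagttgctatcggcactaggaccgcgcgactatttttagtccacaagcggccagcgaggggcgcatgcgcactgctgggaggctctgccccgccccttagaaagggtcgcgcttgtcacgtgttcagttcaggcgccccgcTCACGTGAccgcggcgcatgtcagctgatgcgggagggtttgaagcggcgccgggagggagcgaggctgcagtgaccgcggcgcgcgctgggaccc

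The amino acid response, in which ATF4 raises amino acid synthesis and tRNA charging, was lower in 14 of 30 members and higher in 1, with a median of -0.47. Ddit3, the transcription factor CHOP, stood at 31.4 and 29.9 CPM in WT control tumours, 34.9 and 32.1 in WT laparotomy tumours, 39.95 and 37.6 in KO control tumours and 32.6 and 39.1 in KO laparotomy tumours, against 338, 370.0 and 315 in culture. The tumours were close to each other, and the log2 fold change was -3.30 (adjusted p = 3.46e-10, SE 0.070). Pycr1, of proline synthesis, had 5.03 to 8.63 CPM in the tumours, against 40.3 to 42.4 in culture (-2.58 ± 0.15). Atf5, a relative of Atf4, was the higher member at 152 to 208 CPM in the tumours, against 28.2 to 31.9 in culture (2.51 ± 0.11). Trib3 (-1.62), Asns, asparagine synthetase (-1.14), and Chac1 (-1.16) were lower. Atf4 itself had 437 to 549 CPM in the tumours, against 422 to 426 in culture and was not called in all groups. Without WT laparotomy replicate 1 or replicate 2 the lower count was 9.

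Unfolded protein response genes were lower in 4 of 17 cases and higher in 1, with a median of -0.09 that became 0.03 with scaling on genes expressed in culture. The higher count was 2 without KO laparotomy replicate 1 or replicate 2. The chaperones Hsp90b1 (-0.71) and Pdia6 (-0.70) were lower, and the co-chaperone Dnajb9 was higher (0.88).

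Genes of S phase were higher in 13 of 31 cases and lower in 1, with a median of 0.20, whereas genes of G2 phase and mitosis were lower in 11 of 30 and higher in 3, with a median of -0.44. Fen1, which trims DNA flaps, had 66.5 to 86.2 CPM in the tumours, against 21.1 to 24.2 in culture (1.73 ± 0.086), the licensing factor Cdc6 differed by 1.14 ± 0.066, and cyclin E1, Ccne1, by 1.61 ± 0.11. On the mitotic side Nusap1 had 53.2 to 84.9 CPM in the tumours, against 154 to 156 in culture (-1.22 ± 0.093), Ect2 differed by -0.78 ± 0.068 and Hmmr by -0.66 ± 0.057. The mitotic regulator Foxm1 was higher (0.90), and the proliferation marker Mki67 differed by 0.13. The count of lower G2 and mitotic genes was 7 without WT laparotomy replicate 1, 5 without WT laparotomy replicate 2 and 7 without culture replicate 2.

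Ribosome biogenesis and Myc target genes were higher in 16 of 25 cases and lower in none, with a median of 0.78. Bop1 (chromosome 15, 76452989 to 76477277), which processes ribosomal RNA, stood at 124 and 119 CPM in WT control tumours, 123 and 121 in WT laparotomy tumours, 116 and 111 in KO control tumours and 124 and 124 in KO laparotomy tumours, against 25.4, 27.7 and 29.5 in culture. The 8 tumours were almost equal, and the log2 fold change was 2.12 (adjusted p = 3.68e-09, SE 0.071). Rrp12, an export factor of ribosomal particles, had 83.8 to 104 CPM in the tumours, against 21.4 to 27.1 in culture (1.96 ± 0.095), and Rrp9, a part of the small subunit processome, 65.5 to 85.5 CPM in the tumours, against 21.4 to 22.3 in culture (1.78 ± 0.10). Myc itself did not hold a direction, with -0.45 in WT control, 0.38 in WT laparotomy, 0.79 in KO control and 0.22 in KO laparotomy tumours. Cytosolic ribosomal protein genes were lower in 13 of 34 cases and higher in none, with a median of -0.31. Among them Rpl3 differed by -0.75 ± 0.059 and Rps15 by -0.82 ± 0.068, and the count was 7 and the median -0.19 when libraries were scaled on genes expressed in culture. Processed copies of such genes make their reads uncertain.

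Lipid genes did not move as 1 block. Cholesterol synthesis and uptake genes were higher in 10 of 25 cases and lower in 1, with a median of 0.34. Hsd17b7, an enzyme of late sterol synthesis, had 45.8 to 94.05 CPM in the tumours, against 5.86 to 8.19 in culture, a log2 fold change of 3.09 (adjusted p = 7.26e-08, SE 0.16). Idi1, an isomerase of isoprenoid synthesis, had 10.6 to 28.4 CPM in the tumours, against 2.46 to 3.34 in culture (2.55 ± 0.18). Insig1, which holds back sterol synthesis, was the lower member (-1.10), and there was none without KO laparotomy replicate 1 or culture replicate 2.

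Fatty acid synthesis genes were lower in 10 of 20 tested cases and higher in 4, with a median of -0.30 that was -0.18 with scaling on genes expressed in culture and -0.06 with no filter on low counts. Acsl3, which activates long-chain fatty acids, had 45.3 to 75.5 CPM in the tumours, against 145 to 146 in culture (-1.38 ± 0.077), and the desaturases Scd1 and Fads1 differed by -1.09 ± 0.062 and -1.23 ± 0.071. Fasn, fatty acid synthase, went the other way and stood at 458 and 385 CPM in WT control tumours, 474 and 542 in WT laparotomy tumours, 565 and 424 in KO control tumours and 519 and 452 in KO laparotomy tumours, against 162, 196 and 174 in culture. The tumours did not overlap culture, with a log2 fold change of 1.43 (adjusted p = 1.23e-06, SE 0.11), and Acly, which supplies acetyl-CoA, was higher by 0.54.

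In fatty acid uptake and lipid droplets 9 of 21 tested genes were lower and 2 higher, with a median of -0.09 that became 0.03 with scaling on genes expressed in culture and -0.55 with at least 5 CPM in 2 libraries. It was -0.25 without WT control replicate 2 and -0.19 without WT laparotomy replicate 2. Acsl5 (chromosome 19, 55251938 to 55297720), an acyl-CoA synthetase of intestine and liver, stood at 107 and 117 CPM in WT control tumours, 117 and 98.4 in WT laparotomy tumours, 103 and 98.8 in KO control tumours and 89.9 and 102 in KO laparotomy tumours, against 3.69, 3.46 and 3.02 in culture. The tumour values lay within 89.9 to 117 CPM, and the log2 fold change was 4.94 (adjusted p = 7.12e-10, SE 0.12). The transporter Slc27a1 (-2.38), Acsl1 (-1.97), the phosphatase Lpin1 (-2.70) and the lipase Lpl (-2.57) were lower. The higher count was 4 without WT control replicate 2 and 1 without KO laparotomy replicate 2. Of 25 tested genes of fatty acid oxidation, 7 were lower and 4 higher, with a median of -0.24 that was -0.12 with scaling on genes expressed in culture, -0.10 with no filter on low counts and -0.15 without culture replicate 2, and the higher count was 2 without WT laparotomy replicate 2. Ppargc1a, the coactivator PGC-1 alpha, stood at 0 and 0.266 CPM in WT control tumours, 0.0436 and 0.09495 in WT laparotomy tumours, 0 and 0 in KO control tumours and 0 and 0 in KO laparotomy tumours, against 11.5, 8.99 and 12.5 in culture. Hadh differed by -1.52 ± 0.085 and Acadl by -0.72 ± 0.069, both enzymes of beta-oxidation.

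Glycolysis genes were split, with 3 of 17 higher, 5 lower and a median of -0.34. Gpi1 (-1.24 ± 0.066) and Aldoa (-1.32 ± 0.080), upper enzymes of the pathway, were lower. Hk2, the inducible hexokinase, was higher (1.01 ± 0.072), as was Ldha, lactate dehydrogenase, with 1449 to 1939 CPM in the tumours, against 1100 to 1335 in culture (0.45). The higher count was 1 without KO control replicate 1, culture replicate 1 or culture replicate 3, and the lower count was 3 without WT laparotomy replicate 1 or 2.

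Hypoxia genes were lower in 7 of 17 cases and higher in none, with a median of -0.49, and 13 of the 17 differed among the tumour groups, against 8.79% of all genes, a share that single libraries move, as given further on. Ero1l, an oxidase of the endoplasmic reticulum, stood at 229 and 205 CPM in WT control tumours, 553 and 451 in WT laparotomy tumours, 218 and 229.5 in KO control tumours and 241 and 271 in KO laparotomy tumours, against 1083, 1227 and 1102 in culture. The WT laparotomy pair was highest among tumours and still below culture, with log2 fold changes of -2.39 in WT control, -1.18 in WT laparotomy, -2.35 in KO control and -2.15 in KO laparotomy tumours (difference among groups, adjusted p = 0.00219). Kdm3a, a histone demethylase induced by low oxygen, had 85.4 to 163 CPM in the tumours, against 217 to 234 in culture (-1.001 ± 0.053), and Ankrd37 11.4 to 23.8 CPM in the tumours, against 40.3 to 49.2 in culture (-1.54 ± 0.12). Bnip3, of mitochondrial turnover, stood at 129 and 121 CPM in WT control tumours, 331 and 249 in WT laparotomy tumours, 120.0 and 108 in KO control tumours and 123 and 186 in KO laparotomy tumours, against 196, 248 and 224 in culture, and only the WT laparotomy pair was above every culture. Adm, the vasodilator adrenomedullin, stood at 1.65 and 4.39 CPM in WT control tumours, 19.3 and 13.8 in WT laparotomy tumours, 1.02 and 0.578 in KO control tumours and 3.296 and 3.95 in KO laparotomy tumours, against 0.112, 0.3299 and 0.795 in culture, with the same pair highest. Oxidative phosphorylation genes were higher in 4 of 34 cases and lower in 5, with a median of -0.05 that became 0.07 with scaling on genes expressed in culture. Without WT laparotomy replicate 2 the counts were 2 and 3. Sdha differed by -0.75 ± 0.054, Cox7b by 0.80 ± 0.077 and Atp5a1 by 0.51 ± 0.055.

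Interferon response genes had no common direction, with 7 of 40 higher and 9 lower. Of the 40, 16 differed among the tumour groups, against 8.79% of all genes, a share that single libraries move. The median was -0.11, and 0.01 with scaling on genes expressed in culture. Iigp1, a GTPase against intracellular pathogens, had 49.2 to 169.9 CPM in the tumours, against 5.94 to 9.84 in culture (3.81 ± 0.18). Rsad2 (-1.72), the antiviral viperin, and the signal transducer Stat2 (-1.37) were lower. Irf1 stood at 138 and 166 CPM in WT control tumours, 151 and 174 in WT laparotomy tumours, 334 and 306 in KO control tumours and 207 and 212 in KO laparotomy tumours, against 304, 259.5 and 269 in culture. The KO control pair lay above all cultures and the other 6 tumours below them, with log2 fold changes of -0.86 in WT control, -0.77 in WT laparotomy, 0.21 in KO control and -0.41 in KO laparotomy tumours (difference among groups, adjusted p = 0.00332). MHC class I presentation genes were higher in 8 of 15 cases and lower in 1, with a median of 0.65, and none was lower without KO control replicate 2. B2m, the light chain of MHC class I, had 1855 to 2597 CPM in the tumours, against 1367 to 1497 in culture (0.65 ± 0.078), and H2-Q4, Psmb8 and Psmb10 differed by 1.05, 0.92 and 0.98. H2-Q4 has close relatives that can share its reads. Host leukocytes also express both lists. Target genes of p53, the guard against DNA damage, were higher in 5 of 16 cases and lower in 5, with a median of -0.17. They included Bax (-1.01) and Zmat3 (-1.12) on the lower side and the death receptor Fas (1.36) on the higher one.

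Some genes were read almost only on one side. There were 81 genes with no count in any culture and at least 1 CPM in every tumour library, of which 57 varied by 5-fold or more over the tumours and 2 by less than 2-fold. Of the 81, 9 are in the host marker lists. Csf1r (5.77 to 59.7 CPM), C1qa (6.27 to 28.7) and Plek (5.602 to 96.05), genes of macrophages and other leukocytes, were of this kind. Zfp182, a zinc finger gene on the X chromosome, stood at 9.43 and 11.4 CPM in WT control tumours, 10.9 and 11.1 in WT laparotomy tumours, 8.38 and 11.7 in KO control tumours and 7.06 and 10.9 in KO laparotomy tumours, against 0, 0 and 0 in culture. Its tumour values were nearly even, and it was at least 116-fold higher. Medag, an adipogenesis gene, stood at 78.1 and 38.8 CPM in WT control tumours, 33.3 and 28.5 in WT laparotomy tumours, 55.8 and 75.5 in KO control tumours and 49.6 and 27.5 in KO laparotomy tumours, against 0, 0 and 0 in culture, which makes it at least 521-fold higher. Mctp2 had 5.56 to 13.7 CPM in the tumours, against 0 in every culture.

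In the opposite direction, 21 genes had at least 5 CPM in every culture and less than 0.5 CPM in every tumour library. Nfasc (chromosome 1, 132564690 to 132741797), the adhesion protein neurofascin, stood at 0 and 0 CPM in WT control tumours, 0 and 0 in WT laparotomy tumours, 0 and 0 in KO control tumours and 0.0673 and 0 in KO laparotomy tumours, against 16.99, 16.5 and 14.1 in culture, 2790-fold (499- to 111000-fold) lower in tumours by the ratio of counts with its exact 95% interval. Chrnd, a subunit of the muscle acetylcholine receptor, had 0 to 0.1899 CPM in the tumours, against 17.3 to 20.4 in culture. Ovol2, a transcription factor of epithelia, had 0 to 0.166 CPM in the tumours, against 18.7 to 22.9 in culture, and Cldn9, a claudin of tight junctions, 0 to 0.1899 CPM in the tumours, against 9.54 to 12.97 in culture. The antisense gene Ptprtos had 0 to 0.253 CPM in the tumours, against 44.6 to 47.01 in culture, with a log2 fold change of -9.85 (adjusted p = 1.84e-07, SE 0.49), and it kept its direction and its call with the strand-specific counts. The homeobox gene Rhox2h had 0 to 0.458 CPM in the tumours, against 26.2 to 30.3 in culture, and Atp8b3, a phospholipid flippase known from testis, 0.0771 to 0.469 CPM in the tumours, against 33.1 to 34.99 in culture. The protease Klk10 had 0 to 0.253 CPM in the tumours, against 6.82 to 10.3 in culture, and the transporter Slc6a13 0 to 0.183 CPM in the tumours, against 5.01 to 7.27 in culture. Also among the largest decreases, but above 0.5 CPM in some tumour library, were the adaptor Grb7 with 0 to 0.631 CPM in the tumours, against 21.1 to 27.5 in culture and the sodium channel Scn1a with 0 to 0.536 CPM in the tumours, against 17.2 to 18.97 in culture. Ano9, of a family of scramblases, had 0 to 0.538 CPM in the tumours, against 35.6 to 37.5 in culture, and Scrn1 0.135 to 1.33 CPM in the tumours, against 54.5 to 55.6 in culture. The groups did not overlap for any of these genes.

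A test of any difference among the 4 tumour groups called 1258 genes (8.79%), of which 367 were higher and 309 lower than culture in all 4 groups. That count depends on single libraries. It was 2463 without WT control replicate 1, 1893 without KO laparotomy replicate 1, 192 without WT laparotomy replicate 1 and 236 without WT laparotomy replicate 2, and 503, 527 and 440 without culture replicates 1, 2 and 3. The cultures enter this test mainly through the spread of each gene, which was estimated from all 11 libraries. The common value of that spread (0.217) lies below that of the tumours alone (0.273).

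The 8 genes with the smallest p of that test among those held in all groups were Clstn3, Eya1, Mfap3l, Syt13, Ogt, Ero1l, Adamts4 and Lama4. Clstn3, a calsyntenin, stood at 39.2 and 45.5 CPM in WT control tumours, 51.8 and 54.9 in WT laparotomy tumours, 17.98 and 17.4 in KO control tumours and 47.97 and 44.3 in KO laparotomy tumours, against 195, 214 and 194 in culture. KO control tumours were lowest (adjusted p = 0.00175). Eya1, a transcription cofactor and phosphatase, stood at 1.56 and 1.96 CPM in WT control tumours, 11.9 and 9.53 in WT laparotomy tumours, 2.12 and 2.89 in KO control tumours and 2.96 and 1.88 in KO laparotomy tumours, against 183, 202 and 188 in culture. The WT laparotomy pair was highest among tumours and still below culture (adjusted p = 0.00175). Syt13, a synaptotagmin, stood at 15.6 and 8.37 CPM in WT control tumours, 60.95 and 43.9 in WT laparotomy tumours, 2.39 and 4.51 in KO control tumours and 36.6 and 34.9 in KO laparotomy tumours, against 0.782, 0.9898 and 0.716 in culture, and KO control tumours were again lowest (adjusted p = 0.00219). Ogt, which attaches N-acetylglucosamine to proteins, stood at 205 and 217 CPM in WT control tumours, 413 and 355 in WT laparotomy tumours, 225 and 243 in KO control tumours and 182 and 196 in KO laparotomy tumours, against 499.7, 508 and 482 in culture, with the WT laparotomy pair highest among tumours (adjusted p = 0.00219). Mfap3l had 6.98 to 25.1 CPM in the tumours, against 53.1 to 56.7 in culture.

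Padi4 (chromosome 4, 140745865 to 140774236) stood at 3.203 and 7.54 CPM in WT control tumours, 30.7 and 30.4 in WT laparotomy tumours, 5.46 and 2.12 in KO control tumours and 3.97 and 2.81 in KO laparotomy tumours, against 67.3, 75.8 and 67.8 in culture. All tumours were below culture, and the WT laparotomy pair was highest among them. The log2 fold changes were -3.63 in WT control, -1.20 in WT laparotomy, -4.21 in KO control and -4.37 in KO laparotomy tumours, with -3.35 (adjusted p = 1.48e-06, SE 0.25) on the mean and an adjusted p of 0.00493 for a difference among groups. Since the deletion is in the host, Padi4 in tumour cells checks no label.

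Medians also differed between chromosomes, over the 8860 genes at 5 CPM or more in all 11 libraries. On chromosome 10 the median log2 fold changes of 439 genes were -0.312 in WT control, -0.289 in WT laparotomy, -0.295 in KO control and -0.309 in KO laparotomy tumours, against -0.0695, -0.0133, -0.0223 and -0.0571 over all 8860 genes. Of its genes, 38.7% were lower in all 4 groups, against 25.2% of all. On chromosome 15, with 359 genes, the medians were 0.294, 0.277, 0.127 and 0.263 in the same order of groups, and 36.5% were higher, against 23.5% of all. Split into 10 consecutive parts, chromosome 10 was below 0 in all 4 groups in all 10 parts, and chromosome 15 above 0 in 8 of 10. Chromosome 11 was below 0 in 8 of 10 parts, with a median of -0.142 on the mean of the groups, and 29.7% of its 752 genes were lower. These chromosomes were picked after their medians were seen, and what lies behind these medians was not tested. On chromosome 13 the groups differed more, with medians of -0.304, -0.256, -0.0192 and -0.164.

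**Figure D5:**
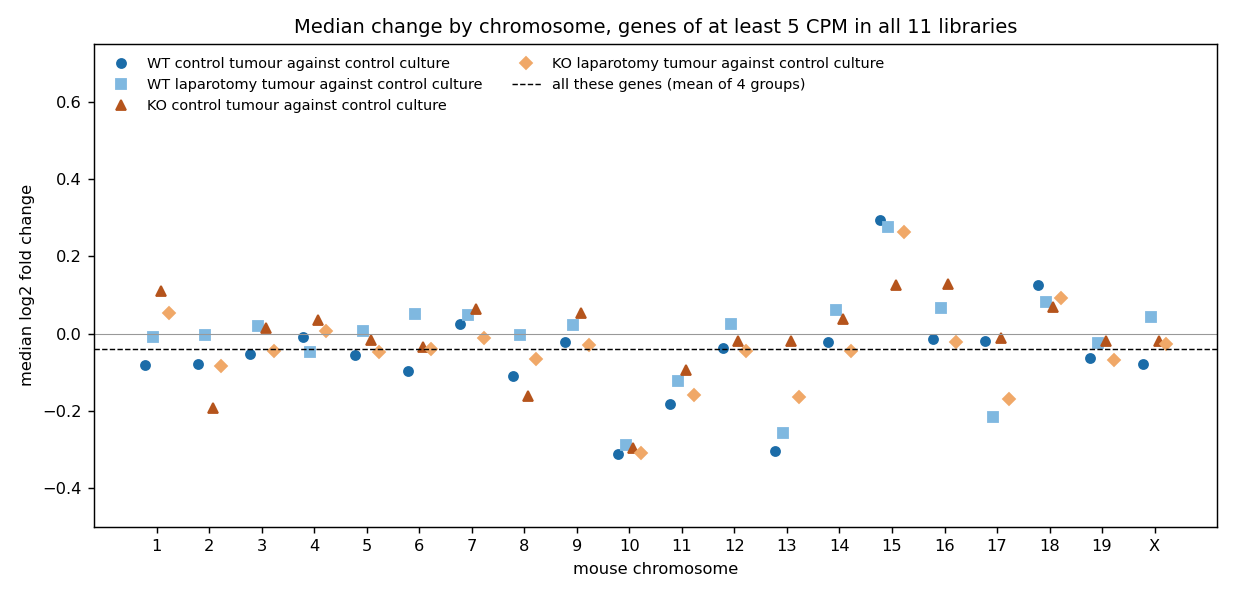
Median log2 fold change against control culture by chromosome in the 4 tumour groups, for genes at 5 CPM or more in all 11 libraries. Chromosome 10 lay near -0.3 and chromosome 15 above 0 in all 4 groups.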

How the data were processed

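RNA-seq of 11 libraries was compared, 8 of sorted lung tumour cells in 4 groups of 2 and 3 of control culture. The values are the authors' deposited read counts per gene, 3 columns by strand setting, of which the unstranded one was used. Reads were processed with Trimmomatic and STAR against mm10, per the submitters' processing notes; the annotation is not given in the sources used here, nor the kit. The 4 summary lines of each file were left out, and the share of reads outside genes is given with the results. The NET-treated cultures were not used here.

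edgeR 4.0.16 (R 4.3.3) was fitted to the 5 groups together with TMM factors, filterByExpr and the quasi-likelihood test, with Benjamini-Hochberg adjustment over all 14318 genes. Contrasts were each tumour group minus culture, their mean, and any difference among tumour groups. SE is the log2 fold change divided by the square root of F. CPM carry no prior count. Replicate numbers pair nothing in the labels, and deviations of same-numbered libraries correlated between -0.127 and 0.372 over 20 pairs, so no block was used. Replicates were distinct libraries, with chi-square per degree of freedom of 2.84 to 50.4. DESeq2 1.42.0, limma 3.58.1, other scalings, filters, the strand-specific counts and leaving out each library were tried as alternatives, and the tests were checked on simulated counts. Fold bounds use a floor of 3 counts over the cultures.

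Genes were named by a rule: among genes held in all 4 groups, ranked by their smallest absolute log2 fold change, 15 lower and 15 higher with at least 5 CPM in every culture, and 15 higher with under 1 CPM in every culture and at least 5 CPM in every tumour; 3 members of each state or lipid list with the smallest p; 2 abundant members of each marker list; 8 held genes with the smallest p among tumour groups; and Padi4. Not all are printed, and some are not reported here. Members and lists were chosen with earlier results of these data known. Of 634 genes in the state and lipid lists, 480 matched RefSeq promoter windows (GRCm38.p6). Gene positions are from GENCODE vM21 (GRCm38).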

Additional observations from a re-analysis of the deposited data

Results flagged for a closer look

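Genes described in the report that also differed among the 4 tumour groups are given here with the adjusted p of that edgeR test, which called 8.79% of all genes. Each was singled out by that test, whose spread for each gene was estimated from all 11 libraries. The common value was 0.217, against 0.273 over the 8 tumour libraries and 0.0608 over the cultures. The common value lies below that of the tumours alone, so these adjusted p-values can be too small. With voom, which weighted tumours and cultures apart, 538 genes were called in place of 1258. Where 2 tumour groups are set side by side, no pair of groups was tested on its own.

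The smallest values were those of Clstn3 and Eya1 (0.00175 each) and of Adamts4, Ero1l, Lama4, Mfap3l, Ogt and Syt13 (0.00219 each). Padi4 had 0.00493. Their levels stand in the report, except that Adamts4 was at 107 and 106 CPM in WT control tumours, 71.5 and 67.2 in WT laparotomy tumours, 103 and 82.1 in KO control tumours and 169 and 189 in KO laparotomy tumours, against 25.6, 28.7 and 29.5 in culture, and Mfap3l at 22.2 and 23.02 CPM in WT control tumours, 13.1 and 16.9 in WT laparotomy tumours, 7.32 and 6.98 in KO control tumours and 22.8 and 25.1 in KO laparotomy tumours, against 53.1, 54.2 and 56.7 in culture.

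Beside Ero1l, the WT laparotomy pair was highest of the tumours for the hypoxia genes Bnip3 (0.00842) and Adm (0.0111). Kdm3a (0.00232) had log2 fold changes of -1.38 in WT control, -0.51 in WT laparotomy, -0.89 in KO control and -1.22 in KO laparotomy tumours. The hexokinase Hk2 (0.00663) had 0.54 in WT control, 1.36 in WT laparotomy, 1.12 in KO control and 1.04 in KO laparotomy tumours.

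Immune genes that differed were Irf1 (0.00332), Iigp1 (0.00689), the MHC class I gene H2-Q4 (0.00492), the immunoproteasome subunits Psmb8 (0.00414) and Psmb10 (0.0122), Fas (0.00922) and Tnf (0.0463). H2-Q4 had log2 fold changes of 1.11 in WT control, 0.67 in WT laparotomy, 1.46 in KO control and 0.98 in KO laparotomy tumours. Psmb8 had 1.03 in WT control, 0.46 in WT laparotomy, 1.33 in KO control and 0.86 in KO laparotomy tumours. The marker genes Cd68 (0.0492), Nkg7 (0.0421) and Itga2b (0.0227) differed too.

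Among matrix and TGF-beta genes the values were 0.0212 for Col6a3, 0.0413 for Lamc1, 0.0263 for Mmp2, 0.00803 for Mmp19, 0.0241 for Smad7, 0.0331 for Skil, 0.0304 for Tgfb2, 0.03 for Itga5, 0.0448 for Cd44 and 0.0424 for Wisp1. Mmp19 had log2 fold changes of 6.68 in WT control, 5.60 in WT laparotomy, 5.48 in KO control and 6.82 in KO laparotomy tumours. For the YAP and TEAD list they were 0.00372 for Cyr61, 0.00668 for Wwc1 and 0.0117 for Axl.

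Myc (0.00288) was the gene of growth control with the smallest value. Ect2 (0.0195) and Hmmr (0.0394) of mitosis, Nr4a2 (0.0281) and Spry2 (0.0478) of the immediate early list, and Dnajb9 (0.0351) of the unfolded protein response also differed. So did the lipid genes Scd1 (0.0172), Slc27a1 (0.0222), Idi1 (0.0426) and Acsl3 (0.0448), and the lysosomal genes Scarb2 (0.0147), Ctsl (0.0149), Lipa (0.0266) and Ctsh (0.0471).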

How the results depend on the processing

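The counts of genes higher or lower than culture kept their size within 1.5 times under every alternative run: other scalings, DESeq2, voom, no filter, a stricter filter, strand-specific counts, the compared groups alone, the replicate block and each library left out. Genes higher in all 4 groups numbered 2988 to 4018 under these settings and 2987 to 3475 with a library left out, and genes lower 2407 to 3266 and 2264 to 2823. The count of genes that differ among tumour groups, 1258, moved: it was 538 with voom and 3217 with DESeq2, and 192 to 2463 with each library left out. With the replicate block, where replicate numbers pair nothing in the labels, it was 275. The cause was not tested. Of the named genes, 2969 values stayed on their side of the threshold, 7 lost and 1 gained the call and none turned; the losses were all in host markers (S100a8, S100a9, Scgb1a1 and Pf4). Scaling on genes expressed in culture turned the medians of 4 lists from negative to positive: fatty acid uptake and lipid droplets (0.03), oxidative phosphorylation (0.07), interferon response (0.01) and unfolded protein response (0.03). With at least 5 CPM in 2 libraries the medians turned negative for YAP and TEAD targets (-0.03) and for erythroid and platelet markers (-1.75). The main limits are 2 libraries in each tumour group, host RNA that varied over the tumours, and a culture group that differs from all tumours in more than growth site. Counts near 0 in culture bound a fold by depth.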
